A study of Homo sapiens with 12 samples.

Results

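TRiC, also called CCT, is the chaperonin of the eukaryotic cytosol, and the 8 genes TCP1, CCT2, CCT3, CCT4, CCT5, CCT6A, CCT7 and CCT8 encode its 8 different subunits. They were taken by name, as the subunits of 1 complex and not by a threshold on their values, with earlier results of these data known. Each had 1 row among the 60671 rows of the deposited table. All 8 passed the filter on low values, a mean of at least 1 FPKM (fragments per gene, divided by gene length and library total), which left 11591 genes. RNA was sequenced in 12 libraries, 3 in each of 4 groups, from cells that the labels call Jurkat, a T cell acute lymphoblastic leukemia line. NC cells are wild type in the labels and carried a GFP vector by the study's methods, whereas PTPN21 cells overexpressed the tyrosine phosphatase PTPN21 as a FLAG-tagged construct. Both were kept for 48 h with vincristine (VCR), a drug that binds tubulin and blocks microtubule assembly, or with its solvent DMSO, which gave the groups NC+DMSO, NC+VCR, PTPN21+DMSO and PTPN21+VCR. The VCR dose of these libraries and whether the 3 libraries of a group came from separate cultures are not given in the sources used here, so p-values measure the spread between these libraries, which may be technical.

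TRiC is built of a pair of stacked rings, each with 1 copy of every subunit, around a chamber in which newly made proteins fold while ATP is hydrolysed. Actin and tubulin are its best known clients, and both reach it with the help of prefoldin, a separate complex that hands over unfolded chains. Since a ring takes the subunits in equal number, the levels of the 8 RNAs beside each other are of interest as well as their sum. VCR acts on the folded tubulin dimer, so the chaperonin stands upstream of the drug's target.

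The markers of the labelled cell type were checked first, and they went against the label. Of 7 T cell genes, CD247 and LCK were listed at 0 in all 12 libraries, CD3E reached at most 0.146 FPKM, and ZAP70 and LAT stayed under 1 FPKM. CD3G reached at most 1.03 FPKM, and CD3D alone was present throughout, at 61.8 to 139.7 FPKM. The summed level of the 7 was 62.6 to 94.8 FPKM in NC+DMSO, 107 to 132 in NC+VCR, 117 to 142 in PTPN21+DMSO and 107 to 111 in PTPN21+VCR. Of 3 B cell genes, MS4A1 was listed at 0 and none reached 1 FPKM in every library. Of 3 myeloid genes, only LYZ did, at 9.08 to 17.0 FPKM. Further genes were then looked up after their values were seen. The T cell genes CD2, CD5, CD28, BCL11B, GATA3 and THY1 all stayed under 1 FPKM, whereas the erythroid genes HBG1, HBG2, HBZ and GATA1 were present in every library, HBG2 at no less than 559.7 FPKM. Genes that most cells use were not at 0 (GAPDH at least 579.9 and TBP at least 24.1 FPKM). The summed level of the 4 erythroid genes also moved with the groups, at 1227 to 2057 FPKM in NC+DMSO, 861 to 886 in NC+VCR, 3003 to 4169 in PTPN21+DMSO and 1051 to 1219.9 in PTPN21+VCR, and its part in the results was not tested. The libraries are therefore called by their labels only. PTPN21 itself followed the labels, with no NC library above 0.569 FPKM and no PTPN21 library under 4.34 FPKM.

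The table gives no read totals. The steps in which low FPKM values fall put the libraries at 14600000 to 17950000 fragments in the NC groups and 20800000 to 24250000 in the PTPN21 groups, although double these values could not be told apart. By this estimate the lowest member value stood for about 3700 fragments (CCT2), with a counting error of 1.64%. The CV between the 3 libraries of a group was 1.27% to 29.2% for the 8 genes.

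All 8 subunit genes were highly expressed, CCT5 the most and CCT4 the least. On the FPKM scale, which is per length, the mean over the 12 libraries was 434 for CCT5, 347 for CCT3, 295 for CCT8, 229 for CCT7, 169 for TCP1, 163 for CCT6A, 128 for CCT2 and 119 for CCT4. Each lay above at least 94.3% of the genes tested. In NC+DMSO the order was the same apart from CCT6A (183 ± 10.7, SD, n = 3) and TCP1 (182 ± 14.5), which overlapped, as did CCT5 with CCT3 and CCT8 with CCT7. The other neighbours in that order did not overlap. The lowest place changed hands: the 3 libraries of CCT2 lay above those of CCT4 in both DMSO groups, below them in NC+VCR, and overlapped them in PTPN21+VCR. The sum of the 8 was 1996 ± 130 FPKM (SD, n = 3) in NC+DMSO, 1739 ± 34.2 in NC+VCR, 1922 ± 106 in PTPN21+DMSO and 1883 ± 87.4 in PTPN21+VCR. The NC groups did not overlap in this sum, and the PTPN21 groups did.

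**Figure D1:**
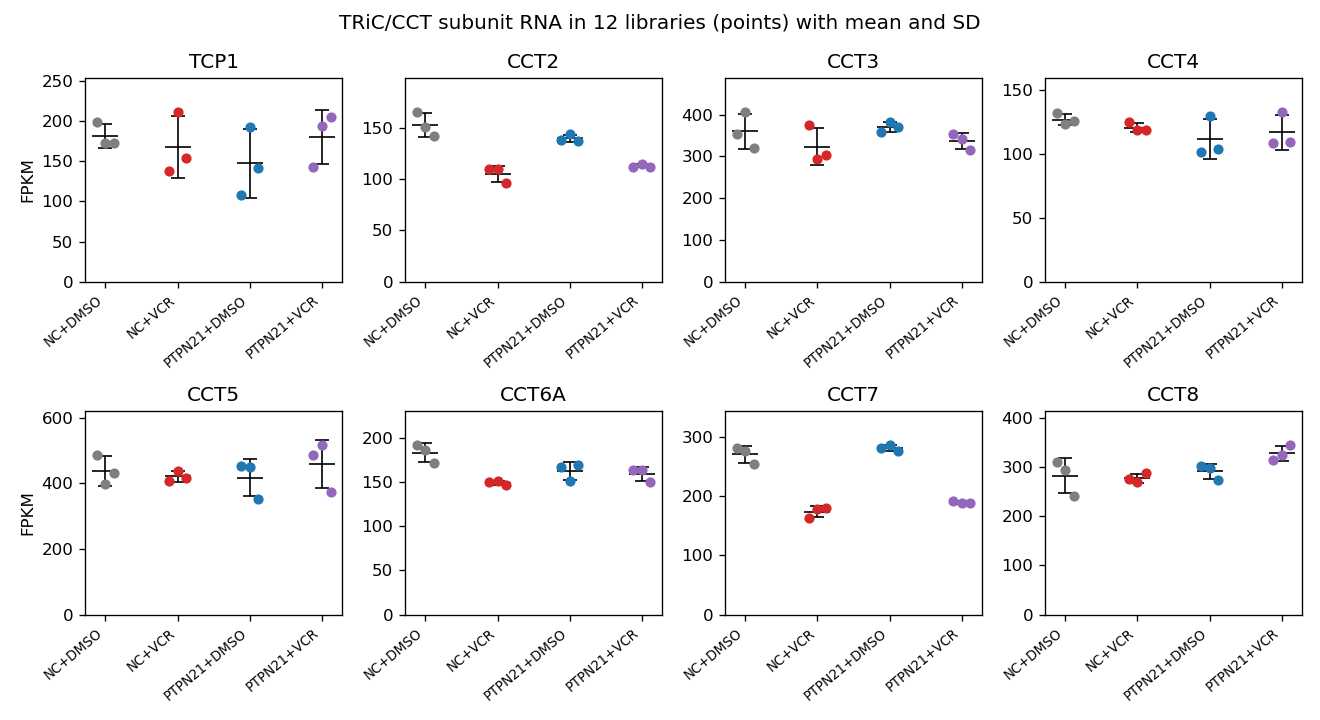
FPKM of the 8 subunit genes, 1 panel per gene, with 1 point per library and a bar for the mean and SD of the 3 libraries of each group; every axis starts at 0. CCT7 and CCT2 stand lower in both VCR groups than in both DMSO groups with no overlap, whereas TCP1 and CCT5 vary as much within groups as between them.

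CCT7, which encodes the eta subunit, was lower with VCR in both backgrounds. It stood at 281, 276 and 255 FPKM in the 3 NC+DMSO libraries and at 163, 178 and 179.9 in NC+VCR. In PTPN21 cells it stood at 282, 286 and 277 FPKM with DMSO and at 192, 188 and 188 with VCR. All 6 VCR libraries were thus below all 6 DMSO libraries. On the log2(FPKM + 1) scale the fitted difference was -0.64 (SE 0.087, 95% interval -0.83 to -0.45, limma adjusted p = 0.000239) in NC cells and -0.57 (SE 0.087, 95% interval -0.76 to -0.38, limma adjusted p = 0.000569) in PTPN21 cells, which are folds of 0.642 and 0.674. After correction for GC content and length the differences were smaller, -0.33 and -0.34 (adjusted p = 0.0147 and 0.0130 in limma). With median ratio scaling the difference in NC cells was -0.24 and did not pass (limma adjusted p = 0.156). As fitted, 32.5% of all genes tested had a lower difference than CCT7 in NC cells and 26.5% in PTPN21 cells.

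CCT2, the beta subunit, followed in the same direction. Its libraries stood at 166, 151 and 143 FPKM in NC+DMSO against 109.6, 109.9 and 96.1 in NC+VCR, and at 139, 144 and 138 in PTPN21+DMSO against 112, 115 and 112 in PTPN21+VCR. Again no VCR library reached a DMSO library. The log2 difference was -0.54 (SE 0.098, limma adjusted p = 0.00157) in NC cells and -0.31 (SE 0.098, limma adjusted p = 0.0345) in PTPN21 cells. After correction for GC content and length the difference in NC cells was -0.30 (limma adjusted p = 0.0354). The difference in PTPN21 cells was close to the threshold and was lost in 13 of 24 other settings, among them the fits without any 1 of the 6 PTPN21 libraries (adjusted p from 0.0733 to 0.0995) and the same correction (-0.23, adjusted p = 0.106).

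CCT6A, the zeta subunit of most tissues, was lower with VCR in NC cells. It stood at 191, 187 and 171 FPKM in NC+DMSO and at 149, 151 and 146 in NC+VCR, without overlap, and the log2 difference was -0.29 (SE 0.093, limma adjusted p = 0.0283). In PTPN21 cells it stood at 167, 151 and 169 FPKM with DMSO and at 164, 163 and 150.2 with VCR, which overlap, and the difference was -0.03 (limma adjusted p = 0.848). The call in NC cells was the least stable of the 3, since 12 of 24 settings lost it. Without NC+DMSO replicate 1, NC+DMSO replicate 2, NC+VCR replicate 1 or NC+VCR replicate 3 the adjusted p was 0.0874, 0.0597, 0.0557 and 0.0677, and after correction for GC content and length the difference was -0.06 (adjusted p = 0.715).

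For the other 5 subunits no difference passed the test in either background. CCT8, the theta subunit, stood at 311, 293 and 242 FPKM in NC+DMSO and 275, 270.0 and 288 in NC+VCR (log2 difference -0.02, 95% interval -0.25 to 0.21). In PTPN21 cells its libraries stood at 302, 298 and 273 FPKM with DMSO and 315, 324 and 344 with VCR, higher without overlap, and the difference of 0.17 (95% interval -0.06 to 0.40, limma adjusted p = 0.251) did not pass. CCT3, the gamma subunit, stood at 352, 405 and 320.4 FPKM in NC+DMSO and 374, 293 and 303 in NC+VCR, and at 357, 382 and 369.6 in PTPN21+DMSO and 353, 341 and 316 in PTPN21+VCR. The NC groups overlapped and the PTPN21 groups did not, with log2 differences of -0.15 and -0.14 (adjusted p = 0.323 and 0.420 in limma).

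CCT4, the delta subunit, varied little in NC cells, with 123 to 132 FPKM in NC+DMSO and 119 to 125 in NC+VCR. In PTPN21 cells it spread from 102 to 130.0 FPKM with DMSO and from 109 to 133 with VCR. The fitted differences were -0.07 (95% interval -0.33 to 0.19) and 0.07 (-0.19 to 0.33). CCT5, the epsilon subunit, ranged from 397 to 488 FPKM in NC+DMSO, 408 to 439.5 in NC+VCR, 353 to 452 in PTPN21+DMSO and 375 to 517 in PTPN21+VCR, and all these ranges overlap. Its differences were -0.05 (95% interval -0.36 to 0.25) and 0.13 (-0.17 to 0.43).

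TCP1, the alpha subunit that gave the complex its older name, was the most variable in 3 of the 4 groups. It stood at 199, 173 and 174 FPKM in NC+DMSO, 137, 211 and 154 in NC+VCR, 108, 193 and 141 in PTPN21+DMSO and 143, 194 and 205 in PTPN21+VCR. The CV within a group was 7.99% in NC+DMSO and 18.5% to 29.2% in the other 3. The log2 differences of -0.14 (95% interval -0.61 to 0.33) and 0.31 (-0.16 to 0.79) had intervals that reach far to both sides of 0. In GENCODE release 29 the gene overlaps ACAT2 on the opposite strand at 1 end, and whether reads were counted by strand is not given in the sources used here, so reads of the pair could be mixed. ACAT2, a thiolase of the cytosol, stood at 126 to 169 FPKM with DMSO and 91.0 to 104 with VCR. CCT4 overlaps COMMD1 (14.7 to 34.9 FPKM) in the same way. Pseudogenes of the 8 hold 13 further rows, with which reads could be shared, and the highest was CCT6P1 at 3.11 to 7.22 FPKM.

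**Figure D2:**
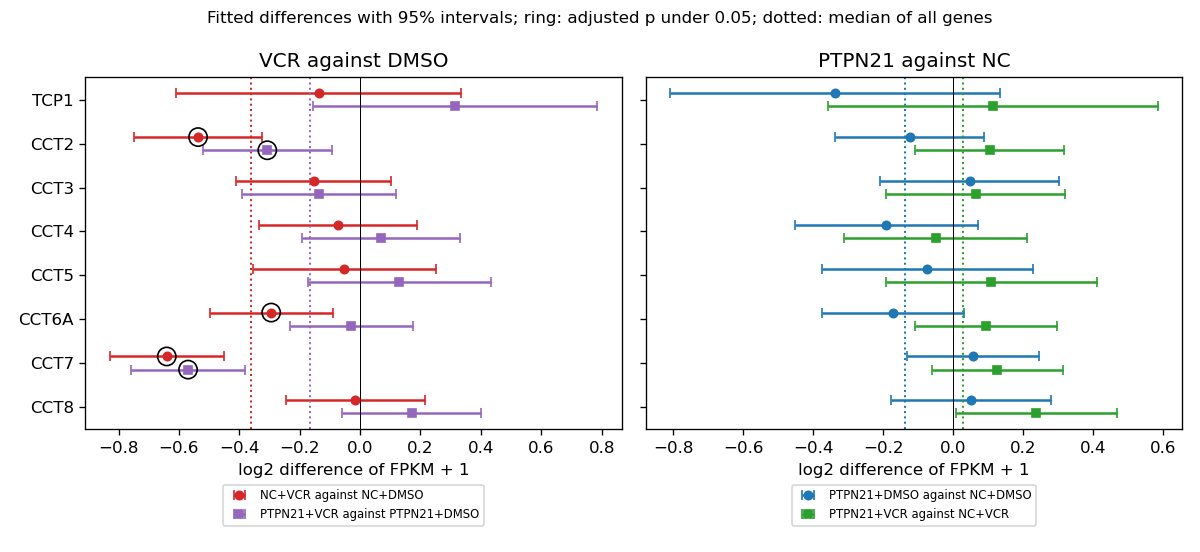
Fitted log2 differences of FPKM + 1 with 95% intervals for the 8 subunit genes, VCR against DMSO on the left and PTPN21 against NC on the right; rings mark an adjusted p under 0.05 and dotted lines the median of all 11591 genes. CCT7 and CCT2 are ringed in both VCR comparisons and CCT6A in NC cells only, and no gene is ringed on the right.

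The members' counts have to be read beside those of all genes, since many genes changed with VCR. In NC cells 3 of 8 subunit genes fell and 0 rose, while 28.3% of all genes tested fell and 7.91% rose. In PTPN21 cells 2 of 8 fell and 0 rose, beside 19.3% and 9.22% of all genes. The groups did not overlap for 3 of 8 subunit genes in NC cells and 4 of 8 in PTPN21 cells, beside 44.1% and 50.4% of all genes. These shares are close to or below the background, so the counts are not a result about the chaperonin as a whole. The median log2 difference was -0.15 over the 8 members and -0.36 over all genes in NC cells, and 0.02 and -0.17 in PTPN21 cells. The place of the members above all genes in NC cells, 0.22, turned to -0.22 with quantile normalization and -0.090 without the filter on low values, and was 0.10 without NC+DMSO replicate 3. Relative to the medians as fitted CCT7 stood at -0.28 and -0.40, CCT2 at -0.17 and -0.14, and CCT6A in NC cells at 0.07. With median ratio scaling, which sets the median of all genes near 0 (-0.03 and -0.02), CCT7 in NC cells was -0.24 (adjusted p = 0.156) and CCT2 -0.14 (adjusted p = 0.449), and neither passed, whereas CCT7 in PTPN21 cells passed under all 24 settings. In bulk RNA, fewer cells of a type and less RNA per cell cannot be told apart.

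The make-up of the set of 8 RNAs on the FPKM scale is the same under any scaling that gives each library 1 factor, though not under quantile normalization or GC content and length correction, which shift genes unequally. CCT7 made up 13.3% to 15.2% of the summed FPKM of the 8 with DMSO (6 libraries) and 9.34% to 10.6% with VCR (6 libraries). By group its share was 13.6% ± 0.272 (SD, n = 3) in NC+DMSO, 9.98% ± 0.610 in NC+VCR, 14.7% ± 0.557 in PTPN21+DMSO and 10.1% ± 0.488 in PTPN21+VCR. The share of CCT2 was 7.07% to 7.81% with DMSO and 5.64% to 6.29% with VCR, again without overlap. The share of CCT8 was 13.0% to 15.8% with DMSO and 15.2% to 19.1% with VCR, which overlap. Within a library, CCT7 was 2.13 ± 0.105 times the level of CCT4 in NC+DMSO and 1.44 ± 0.118 times in NC+VCR, and 2.54 ± 0.303 and 1.63 ± 0.189 times in the PTPN21 groups. Such ratios show unequal change and not which subunit stayed. With 3 libraries against 3 an exact permutation test cannot go below a two-sided p of 0.1, so they were not tested singly. In a fit chosen after the data were seen, each library was scaled to the mean of the 8 members, and CCT7 was then -0.40 (limma adjusted p = 0.00849) in NC cells and -0.52 (limma adjusted p = 0.00183) in PTPN21 cells. On that scale CCT2 was -0.30 and -0.26 (adjusted p = 0.0381 and 0.0623 in limma), and no other subunit passed. The mean of the 8 holds the tested genes themselves, so their differences must balance and a fall of CCT7 pushes the others up. The values of this fit are therefore a description and not separate support for unequal change.

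**Figure D3:**
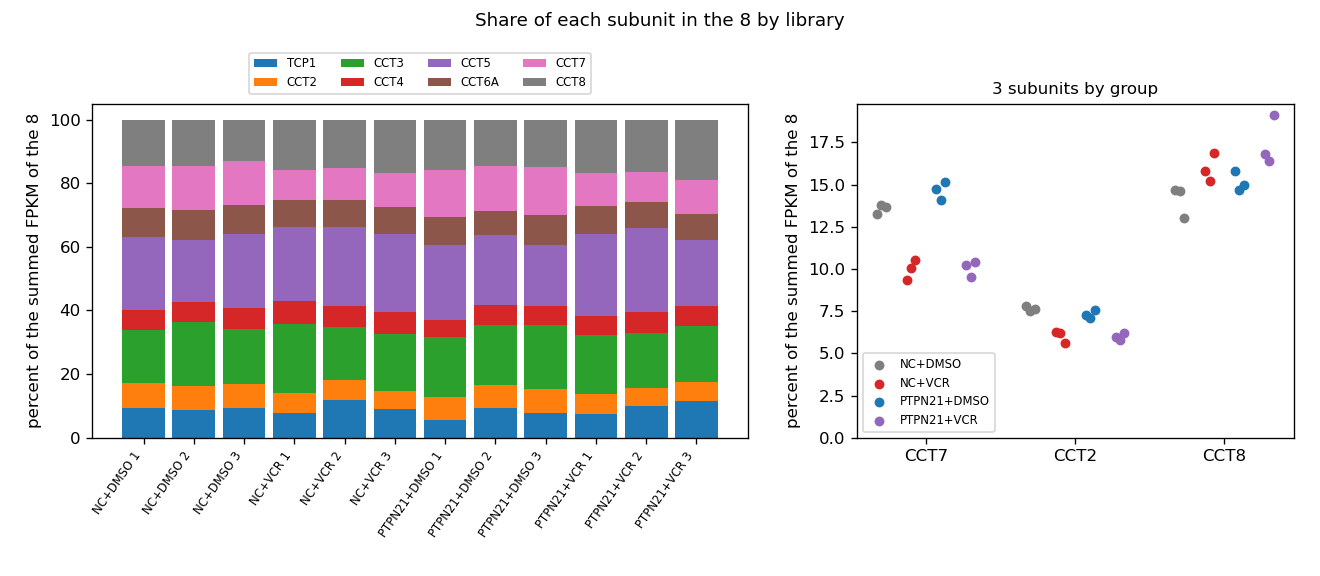
Left, percent of the summed FPKM of the 8 subunit genes that each gene took in each of the 12 libraries, as stacked bars; right, the same percent for CCT7, CCT2 and CCT8 with 1 point per library. CCT7 took 13.3% to 15.2% with DMSO and 9.34% to 10.6% with VCR, and CCT2 also separated, whereas CCT8 overlapped.

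PTPN21 overexpression by itself moved no subunit past the test. In PTPN21+DMSO against NC+DMSO 0 of 8 passed in limma, beside 6.34% of all genes. An unadjusted limma p under 0.05 was found for 0 of 8 and for 2968 of the 11591 genes. The log2 differences ran from -0.34 (TCP1, 95% interval -0.81 to 0.13) to 0.06 (CCT7, -0.13 to 0.24). Only the libraries of CCT6A did not overlap, lower in PTPN21 cells (-0.17, limma adjusted p = 0.272), where 33.4% of all genes did not overlap. TPM scaling gave CCT6A a difference of -0.32 (adjusted p = 0.0460), the only setting with a call here. In PTPN21+VCR against NC+VCR 0 of 8 passed in limma, beside 1.82% of all genes. An unadjusted limma p under 0.05 was found for 1 of 8 and for 1980 of the 11591 genes. The 1 was CCT8, with a log2 difference of 0.24 (95% interval 0.01 to 0.47, limma adjusted p = 0.273). CCT2, CCT7 and CCT8 were higher without overlap in this comparison, beside 22.5% of all genes that did not overlap, and the differences of CCT2 and CCT7 were 0.11 and 0.13. The construct and the estimated depth vary together, and the part of depth cannot be told apart from that of the construct.

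Whether the VCR difference itself depended on PTPN21 was asked with the interaction term. In limma 0 of 8 subunit genes passed, beside 0.129% of all genes. An unadjusted limma p under 0.05 was found for 0 of 8 and for 1624 of the 11591 genes. The estimates were positive for 8 of 8, with a median of 0.19 beside 0.17 for all genes, and GC content and length correction turned those of CCT3, CCT4, CCT5 and CCT7 negative, as median ratio scaling did with CCT8 besides. CCT6A had an interaction of 0.27 (95% interval -0.02 to 0.55, limma adjusted p = 0.391), so that its call in NC cells and lack of one in PTPN21 cells is not shown to be a difference between them. For CCT7 the interaction was 0.07 (95% interval -0.20 to 0.34) and for CCT2 0.23 (-0.07 to 0.53).

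**Figure D4:**
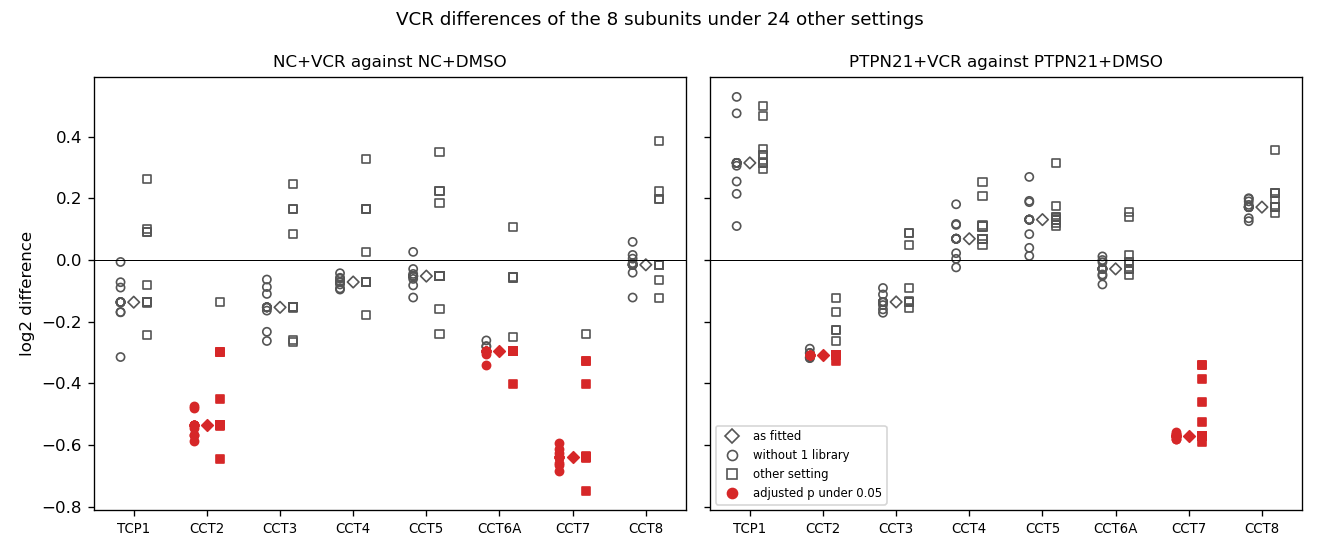
Log2 differences of the 8 subunit genes with VCR in NC cells (left) and PTPN21 cells (right), as fitted (diamonds), in 12 fits without 1 library (circles) and under 12 other settings (squares); red marks an adjusted p under 0.05. CCT7 is red under 23 of 24 settings in NC cells and 24 of 24 in PTPN21 cells, and the 5 subunits that did not pass spread to both sides of 0 in NC cells.

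The promoters of CCT7, CCT2 and CCT8 are shown to set their sequences side by side. As fitted, CCT7 and CCT2 passed with VCR in both backgrounds and CCT8 in neither. In 13 of 24 other settings CCT2 in PTPN21 cells was not called. Neither CCT7 nor CCT2 passed in NC cells with median ratio scaling. RefSeq (GRCh38.p14) windows that reach from upstream to just past the start were at hand for 7 of the 8 genes. CCT2 and CCT4 each have a pair of starts. The annotated genes lie on chromosome 2 (CCT7, 73233420 to 73253021, plus strand), chromosome 12 (CCT2, 69585334 to 69601570, plus strand) and chromosome 21 (CCT8, 29055805 to 29073797, minus strand) in GENCODE release 29, GRCh38. The other 5 lie on chromosome 6 (TCP1, 159778498 to 159789749, minus strand), chromosome 1 (CCT3, 156308968 to 156367873, minus strand), chromosome 2 (CCT4, 61868089 to 61888804, minus strand), chromosome 5 (CCT5, 10249921 to 10266412, plus strand) and chromosome 7 (CCT6A, 56051630 to 56063989, plus strand). Capitals mark motif matches on either strand. The windows are chr2:73234058-73234357, plus strand (CCT7), chr12:69585209-69585508, plus strand and chr12:69585639-69585938, plus strand (CCT2), and chr21:29073599-29073898, minus strand (CCT8).
CCT7: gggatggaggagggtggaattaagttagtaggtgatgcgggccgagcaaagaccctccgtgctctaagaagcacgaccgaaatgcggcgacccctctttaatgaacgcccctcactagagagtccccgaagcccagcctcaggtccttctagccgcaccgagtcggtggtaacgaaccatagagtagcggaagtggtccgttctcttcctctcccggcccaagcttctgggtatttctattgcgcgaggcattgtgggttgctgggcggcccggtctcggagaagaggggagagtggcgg
CCT2, first start: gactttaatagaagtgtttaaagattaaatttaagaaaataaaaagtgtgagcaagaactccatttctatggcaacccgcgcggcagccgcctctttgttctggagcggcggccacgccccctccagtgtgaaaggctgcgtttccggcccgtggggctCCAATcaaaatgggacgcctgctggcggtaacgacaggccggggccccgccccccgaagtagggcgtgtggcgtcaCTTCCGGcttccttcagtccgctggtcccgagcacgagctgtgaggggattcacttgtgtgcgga
CCT2, second start: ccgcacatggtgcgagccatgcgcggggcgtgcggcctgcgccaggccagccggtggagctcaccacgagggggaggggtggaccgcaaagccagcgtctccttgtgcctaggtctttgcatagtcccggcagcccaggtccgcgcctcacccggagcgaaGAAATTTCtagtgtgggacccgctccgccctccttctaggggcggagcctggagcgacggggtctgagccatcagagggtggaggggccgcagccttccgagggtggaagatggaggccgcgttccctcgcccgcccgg
CCT8: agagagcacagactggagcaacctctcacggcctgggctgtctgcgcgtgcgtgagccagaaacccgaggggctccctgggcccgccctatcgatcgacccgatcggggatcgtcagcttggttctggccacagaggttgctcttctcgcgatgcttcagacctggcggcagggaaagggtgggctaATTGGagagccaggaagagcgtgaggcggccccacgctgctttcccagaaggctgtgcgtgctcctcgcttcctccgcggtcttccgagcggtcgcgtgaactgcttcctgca

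A total of 5 motifs were searched on both strands. A gene with a pair of windows counted if either held the motif, while the shares of promoters are over single windows. GAANNTTC, a facing pair of heat shock element units, was in the windows of CCT2 (second start) and TCP1 and in 6.77% of 35116 promoters. TTCNNGAA, the pair facing outward, was in the CCT4 window chr2:61888607-61888906, not in the other CCT4 window, and in 7.74% of promoters. CCGGAAG, bound by ETS factors, was in the window of CCT2 (first start) and in 10.3% of promoters. CCAAT was in 4 of 7 (CCT2, CCT3, CCT8 and TCP1) and in 34.6% of promoters, and the E-box CACGTG was in 0 of 7 and in 7.26% of promoters. The CCT7 window held none of these motifs. CCT7 and CCT2 thus had no searched motif in common. CCT7 and CCT3 had the highest GC content of the 8 transcripts, 51.3% and 51.2% beside 43.1% to 45.9% for the others. With GC content and length correction the VCR difference in NC cells went from -0.64 to -0.33 for CCT7. For CCT3 it went from -0.15 to 0.16, and that of every other member moved up too. In PTPN21 cells it went from -0.57 to -0.34 for CCT7 and from -0.14 to 0.087 for CCT3. The part of GC content in these differences was not tested.

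The genes that work with TRiC moved in several directions with VCR. Beside the counts below, 7.91% of all genes tested rose and 28.3% fell in NC cells, and 9.22% and 19.3% in PTPN21 cells. This background depended on the scaling. Of the genes called in NC cells, 16.3% were higher with TPM, 56.5% with median ratio, 52.5% with quantile and 55.6% with GC scaling. In PTPN21 cells these shares were 30.0%, 51.2%, 51.6% and 53.2%. Prefoldin had 3 of 6 genes higher and 1 lower in both backgrounds, led by PFDN2 (log2 difference 1.13, limma adjusted p = 1.32e-05, in NC cells and 0.65, limma adjusted p = 0.000691, in PTPN21 cells) and PFDN4 (0.93 and 0.61). PFDN2 stood at 1010.0 FPKM in NC+DMSO and 2210.3 in NC+VCR, and at 1174 and 1839 in the PTPN21 groups, all group means. Prefoldin also had 3 rises in each background under TPM, median ratio, quantile and GC scaling. The falls of PFDN6 in NC cells and VBP1 in PTPN21 cells did not pass under median ratio or quantile scaling. GC scaling gave 0 falls in NC cells and 1 in PTPN21 cells. The prefoldin median was 0.38 in NC cells and 0.35 in PTPN21 cells, beside -0.15 and 0.02 for the 8 subunits and -0.36 and -0.17 for all genes.

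Among 3 phosducin-like regulators, small proteins that bind TRiC, 2 fell in NC cells and 1 in PTPN21 cells. TXNDC9 fell in both, with differences of -0.56 and -0.64 (adjusted p = 0.0422 and 0.0273 in limma). PDCL fell in NC cells (-0.44, limma adjusted p = 0.0463) and was at -0.05 in PTPN21 cells. Under median ratio or quantile scaling none of the 3 passed in either background. GC content and length correction lost both falls in NC cells (limma adjusted p = 0.169 for TXNDC9 and 0.321 for PDCL). It kept that of TXNDC9 in PTPN21 cells (-0.61, limma adjusted p = 0.0332). The tubulin cofactors take over tubulin after TRiC. In both backgrounds 1 of 6 rose and 1 fell, while median ratio, quantile and GC scaling each gave 2 higher in both backgrounds. TBCA, which binds beta-tubulin, rose by 0.51 and 0.70 (limma adjusted p = 0.0124 and 0.00253), and ARL2, a small GTPase of the same step, fell by 1.01 and 1.02 (limma adjusted p = 0.00271 and 0.00306). ARL2 in NC cells missed the threshold under median ratio scaling (-0.62, adjusted p = 0.0669).

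The 17 listed client proteins of TRiC split both ways, with 4 higher and 5 lower in each background and a median of -0.10 in NC cells and -0.15 in PTPN21 cells. The medians turned positive with GC content and length correction (0.31 and 0.27, with 5 higher and 1 lower in NC cells and 5 higher and 3 lower in PTPN21 cells), with median ratio scaling (0.17 and 0.034) and with quantile normalization (0.030 and 0.0078). TUBB2A, a beta-tubulin, rose by 1.98 and 1.999 (limma adjusted p = 6.11e-06 and 5.1e-06) and ACTG1, cytoplasmic gamma-actin, by 1.26 and 1.42 (limma adjusted p = 1.11e-05 and 3.79e-06), under each of the 4 other scalings too. Further clients were named after their values were seen. TUBB, the listed beta-tubulin with the highest level, fell by 0.88 and 0.95. ACTB, beta-actin, differed by -0.25 and -0.54 (adjusted p = 0.271 and 0.0323 in limma). TUBA1B differed by -1.16 and -1.41 and TUBB4B by -1.20 and -1.15 (all adjusted p under 0.05 in limma). TUBA1C passed in NC cells only (-0.40, limma adjusted p = 0.0497), and TUBA1A and TUBG1 passed in neither background. Tubulin and actin genes have close copies, so reads could be split among them, and median ratio scaling gave 1 fall in NC cells.

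Of 10 cytosolic HSP70 and HSP90 chaperones and partners, 6 rose and 1 fell in NC cells, and 5 rose and 4 fell in PTPN21 cells. In NC cells the counts were 8 higher and 0 lower with median ratio scaling or GC correction, 4 and 1 with TPM, and 3 and 1 with quantile normalization, and in PTPN21 cells they were 5 and 2, 4 and 4, and 4 and 3 in the same order. HSPA8, the constitutive HSP70, rose by 0.88 and 1.25 (limma adjusted p = 0.00581 and 0.000844), and HSPH1, an HSP110, by 0.45 and 0.67 (limma adjusted p = 0.0406 and 0.00726), though the latter missed the threshold under TPM scaling in NC cells (0.35, adjusted p = 0.132). Named after its values were seen, HSP90AA1 differed by 0.35 and -0.38 (limma adjusted p = 0.00835 and 0.00677). Its interaction was -0.74 (limma adjusted p = 0.0484), close to the threshold, where 0.129% of all genes passed. How this value moved under other settings is not given here. Over the settings, 7 genes (without NC+DMSO replicate 1) to 46 genes (GC content and length correction) passed for the interaction. In PTPN21+VCR against NC+VCR 3 of the 10 were lower and 0 higher, beside 1.82% of all genes called. They were HSPA1A (-0.93), HSPA1B (-0.95) and HSP90AA1 (-0.74). Reads could be shared between HSPA1A and HSPA1B, so these may not be separate calls, here or in the counts above. Counts of this list under other scalings are not given for this comparison. HSPD1 and HSPE1, which form the chaperonin of mitochondria, did not pass in either background, with log2 differences of -0.20 and -0.38 in NC cells and 0.01 and 0.05 in PTPN21 cells. CCT6B, the testis form of the zeta subunit, stood at a mean of 1.29 to 1.52 FPKM by group and did not pass in any comparison, and CCT8L2 was listed at 0 throughout. These lists were chosen with earlier results known, so their counts are a description.

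**Figure D5:**
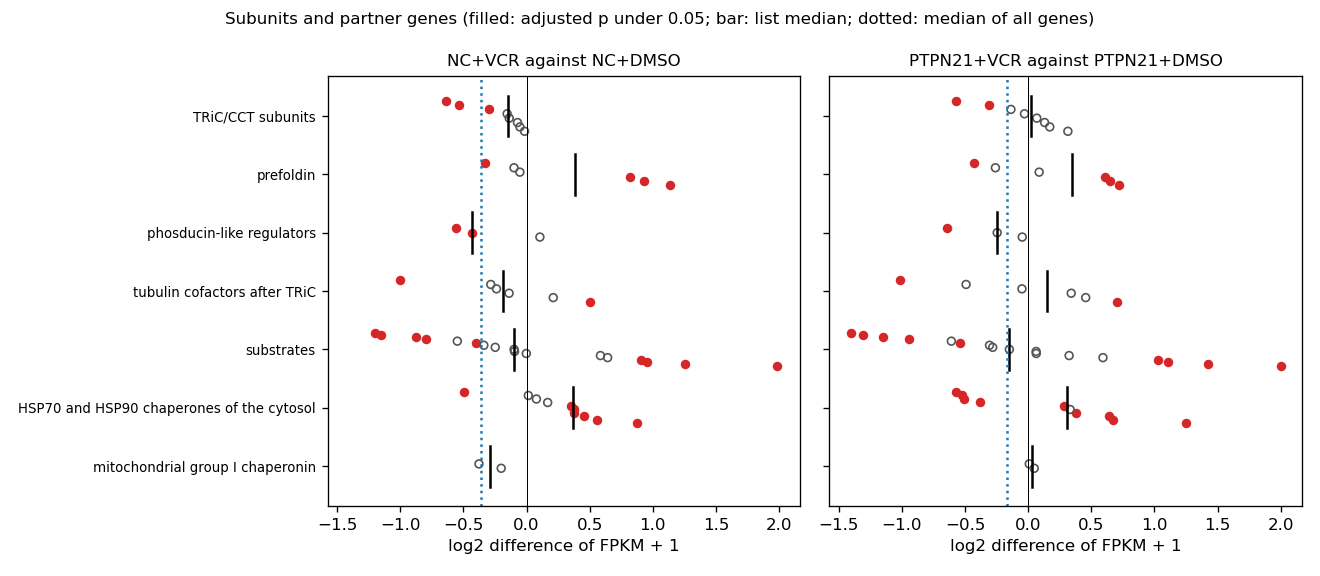
Log2 differences of FPKM + 1 with VCR for the 8 subunit genes and the partner lists, in NC cells (left) and PTPN21 cells (right); 1 point per gene, filled where the adjusted p is under 0.05, with a bar at the median of the list and a dotted line at the median of all genes. Prefoldin lies to the right of the subunits at a median of 0.38 and 0.35, and the clients spread from -1.20 to 1.98 in NC cells.

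Across the 12 libraries the 8 subunit RNAs did not move as 1. The genes whose profile was most like the mean of the 8 (Pearson's r on log2 values over 12 libraries, which mixes differences between groups with spread within them) were GLMN with 0.895, CAPZA2 and PPP2R3C with 0.863 each, and GOT2 and GHITM with 0.857 each. Among the members, r with the mean of the other 7 ran from 0.0451 for CCT8 to 0.688 for CCT2. These values describe the 12 libraries, which share their groups and their depth, and carry no test.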

How the data were processed

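RNA from 12 libraries labelled Jurkat, 3 in each of 4 groups, was sequenced, and groups and replicates were taken from the labels. The values the authors deposited are FPKM, in 1 table that an outside company had made. The submitters' processing notes name fastp, Bowtie2 and the mouse build mm10, without versions, while the 60671 rows carry human Ensembl identifiers; the counting program, the annotation and the use of strand are not given in the sources used here. GENCODE release 29 (GRCh38) gave gene positions, length and GC content.

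The 11591 genes with a mean of at least 1 FPKM were taken to log2(FPKM + 1), and the 4 group means were modelled without a block in limma 3.58.1 (R 4.3.3), trend on, with Benjamini-Hochberg adjustment over all genes (threshold 0.05), after the code was tested on simulated data. A log2 difference on this scale understates the change of low genes. Fragments per library were estimated from the steps of low values, within a range narrowed after a first search. Named genes were the 8 members, from each partner list the 2 with the largest VCR difference, the tissue-restricted paralogues, and the 5 most like the mean member profile. The members and lists were chosen with earlier results of these data known. Alternatives were 12 settings of scaling, filter and fit, 1 of them (scaling to the mean of the 8 members) chosen after seeing the data, and 12 fits without 1 library. Python 3.11.15, pandas 2.3.3, numpy 2.4.6 and matplotlib 3.10.9 were used.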

Additional observations from a re-analysis of the deposited data

How the results depend on the processing

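Of 952 values of single members under other settings, 843 kept their direction and their side of the threshold, 26 lost a call, 1 gained one and 82 changed sign. None of those that changed sign had been called except CCT6A in NC cells under median ratio scaling. The number of members called stayed within 1.5 times under all settings but these. With VCR in NC cells, median ratio scaling called 0. With VCR in PTPN21 cells, 1 (CCT7) was called with median ratio, quantile or GC content and length scaling, without the intensity trend, with a replicate block alone or with GC correction, and scaled to the members, and 1 to 2 without 1 library. Between the DMSO groups, TPM scaling called 1. The median of the members minus that of all genes, without the filter, was -0.090 in NC+VCR against NC+DMSO, 0.032 in PTPN21+VCR against PTPN21+DMSO, -0.089 in PTPN21+DMSO against NC+DMSO and 0.15 in the interaction. With quantile normalization it was -0.22 in NC+VCR against NC+DMSO, -0.21 in PTPN21+DMSO against NC+DMSO and 0.26 in the interaction, and without 1 library 0.10 to 0.27 in NC+VCR against NC+DMSO, the lowest without NC+DMSO replicate 3. The cause was not tested.

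Whether libraries of the same number were made together is not given in the sources used here. No shared effect of the replicate number was visible, since 0 of 18 same-numbered pairs correlated above 0.1 (-0.145 to 0.0583). That does not exclude a pairing. With a replicate block 2 members were called in NC cells and 1 in PTPN21 cells, CCT6A (adjusted p = 0.0506) and CCT2 (adjusted p = 0.0532) being lost.

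Values that changed sign were as follows. With GC content and length correction, with or without the replicate block, they were in NC+VCR against NC+DMSO TCP1 0.092, CCT3 0.16, CCT4 0.16, CCT5 0.22, CCT8 0.20, in PTPN21+VCR against PTPN21+DMSO CCT3 0.087, in PTPN21+DMSO against NC+DMSO CCT5 0.16, in PTPN21+VCR against NC+VCR CCT2 -0.00091, CCT3 -0.020, in the interaction CCT3 -0.078, CCT4 -0.056, CCT5 -0.083, CCT7 -0.014. With TPM scaling they were in PTPN21+DMSO against NC+DMSO CCT3 -0.10, CCT7 -0.092, CCT8 -0.097. With median ratio scaling they were in NC+VCR against NC+DMSO TCP1 0.26, CCT3 0.25, CCT4 0.33, CCT5 0.35, CCT6A 0.11, CCT8 0.38, in PTPN21+VCR against PTPN21+DMSO CCT3 0.048, CCT6A 0.15, in PTPN21+DMSO against NC+DMSO CCT2 0.077, CCT4 0.0098, CCT5 0.13, CCT6A 0.029, in the interaction CCT3 -0.20, CCT4 -0.075, CCT5 -0.033, CCT7 -0.15, CCT8 -0.029. With quantile normalization they were in NC+VCR against NC+DMSO CCT4 0.026, in PTPN21+VCR against PTPN21+DMSO CCT6A 0.14, in PTPN21+DMSO against NC+DMSO CCT3 -0.12, CCT7 -0.060, CCT8 -0.079. Scaled to the mean of the 8 members they were in NC+VCR against NC+DMSO TCP1 0.10, CCT3 0.084, CCT4 0.17, CCT5 0.19, CCT8 0.22, in PTPN21+VCR against PTPN21+DMSO CCT6A 0.015, in PTPN21+DMSO against NC+DMSO CCT5 0.019, in PTPN21+VCR against NC+VCR CCT3 -0.036, CCT6A -0.0069, in the interaction CCT3 -0.18, CCT4 -0.053, CCT5 -0.0099, CCT7 -0.12, CCT8 -0.0060. Without 1 library the ranges were -0.032 to 0.14 for CCT3 in PTPN21+DMSO against NC+DMSO, -0.0014 to 0.17 for CCT3 in PTPN21+VCR against NC+VCR, -0.073 to 0.13 for CCT3 in the interaction of PTPN21 and VCR, -0.024 to 0.18 for CCT4 in PTPN21+VCR against PTPN21+DMSO, -0.12 to 0.026 for CCT5 in NC+VCR against NC+DMSO, -0.14 to 0.044 for CCT5 in PTPN21+DMSO against NC+DMSO, -0.080 to 0.011 for CCT6A in PTPN21+VCR against PTPN21+DMSO, -0.12 to 0.058 for CCT8 in NC+VCR against NC+DMSO, -0.055 to 0.13 for CCT8 in PTPN21+DMSO against NC+DMSO, -0.017 to 0.29 for TCP1 in PTPN21+VCR against NC+VCR.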
